A study of Notophthalmus viridescens with 3 samples.

Results

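The microRNAs miR-23, miR-24 and miR-27 were read by 14 array probes, 4 for miR-23, 2 for miR-24 and 8 for miR-27, out of 1365 miRNA probes on the array. The 14 were taken by name, as every miRNA probe named miR-23, miR-24 or miR-27 with or without a letter from a to e, whatever the species of the probe, and without partner strands, whose names end in a star. They carry 9 of the 1242 miRNA names on the array. The hearts came from adult red-spotted newts (Notophthalmus viridescens), salamanders that regrow heart muscle after injury. Total RNA of whole hearts was read on 1 array for each of 3 groups: uninjured hearts, hearts 7 days post injury (dpi) and hearts 21 dpi. The labels name no strain or genotype and do not say how many animals a sample holds, and no group has a replicate sample, so no p-value is given and each value describes these 3 arrays. Probes were designed on human, zebrafish and frog miRNAs, so a newt miRNA that differs from them is read through a mismatched probe.

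In mammals the 3 miRNAs are made together, from a pair of gene clusters in which a miR-23, a miR-27 and a miR-24 hairpin lie on the same primary transcript. A miRNA finds its target mRNAs mainly through its seed, bases 2 to 8 counted from the 5′ end, and lowers their translation or stability. In mouse and human, the clusters are known from blood vessels, where miR-23 and miR-27 promote the sprouting of endothelial cells and miR-24 restrains it. In mouse muscle, miR-23a represses ubiquitin ligases that drive muscle wasting, and miR-27 represses Pax3, a factor of muscle precursor cells. No newt genome was used here, so newt loci and genomic positions are not given.

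The target sequences of the probes, copied from the array files 5′ to 3′ with the seed in capitals, show what separates the members. They are shown for a reference probe of each family and for the probes whose readings are described in most detail.
hsa-miR-23b: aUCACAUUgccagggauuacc
dre-miR-23b: aUCACAUUgccagggauuacca
hsa-miR-24: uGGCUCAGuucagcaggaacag
xla-miR-24b: uGGCUCAGuucagcaggacag
hsa-miR-27b: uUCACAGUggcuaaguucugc
dre-miR-27b: uUCACAGUggcuaaguucugca
hsa-miR-27a: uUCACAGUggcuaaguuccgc
dre-miR-27a: uUCACAGUggcuaaguuccgcu
dre-miR-27c: uUCACAGUgguuaaguucugc

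The prefixes stand for human (hsa), zebrafish (dre) and the frogs Xenopus laevis (xla) and Xenopus tropicalis (xtr). The 14 probes share 3 seeds: UCACAUU in the 4 miR-23 probes, GGCUCAG in the 2 miR-24 probes and UCACAGU in the 8 miR-27 probes. Within a family the probes differ mainly at the 3′ end. Counted from the 5′ end and set against hsa-miR-23b, both miR-23a probes carry A19U, and the zebrafish probes of miR-23a and miR-23b are 1 base longer. Against hsa-miR-27b, both miR-27a probes carry U19C, xtr-miR-27c carries U19C and G20A, dre-miR-27d carries G20U, and dre-miR-27e carries U19A and C21U. The zebrafish probe dre-miR-27c alone differs in the middle, at C11U. The xla-miR-24b target is 1 base shorter than hsa-miR-24, with the first 18 and the last 4 bases the same. The hsa-miR-24 probe is listed for human, Xenopus tropicalis and zebrafish alike, so 1 sequence stands for 3 species there. Probes this alike can bind each other's targets, and the signal within a family cannot be divided among its members.

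Each probe had 3 spots per array, and its signal is given as spot intensity above the median of the 587 empty spots of that array. A probe was detected where its middle spot exceeded percentile 95 of the empty spots, an intensity of 73.8 on the uninjured, 77.5 on the 7 dpi and 103 on the 21 dpi array. By that measure 13 of the 14 probes were detected on all 3 arrays, as were 169 of all 1365. The exception, dre-miR-27c, passed in the uninjured heart with a middle spot 8.71 above the empty spots and did not pass at 7 or 21 dpi. At 7 dpi the dimmest detected probe lay 1.01-fold below the uninjured level of dre-miR-27c, whose spots overlapped between the uninjured and 7 dpi arrays. No bound on a decrease is drawn from this, and none could be set at 21 dpi. Brightness differs between probes for reasons other than amount, so levels are followed from array to array within a probe and are not ranked between probes.

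Probes of all 3 families were detected in the resting newt heart and at both times after injury. By the middle spot, 12 of the 13 probes detected throughout had the same order of raw signal, lowest at 7 dpi and highest at 21 dpi. This order is that of the arrays as a whole. Across the 169 probes detected on all arrays, the median log2 ratio of signal was -1.43 at 7 dpi over the uninjured heart and 0.42 at 21 dpi over the uninjured heart. Over the same pairs, 14 probes for 5S rRNA had medians of -0.10 and 0.35, and 12 matched probes for spiked-in RNA 0.42 and 1.24. Scaling to these controls and scaling to the miRNAs give different levels at 7 dpi, and spike-in scaling also does so at 21 dpi. The values below are quantile normalized over the miRNA probes unless stated.

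All 4 miR-23 probes were well above the empty spots on every array. The hsa-miR-23a spots, which also stand for both frogs, read 4895, 4973 and 5287 on the uninjured array, 2003, 2145 and 2287 at 7 dpi, and 5848, 6467 and 6759 at 21 dpi. These spots did not overlap between any of the arrays. Those of hsa-miR-23b read 5565, 6133 and 6358 on the uninjured array, 2322, 2548 and 2595 at 7 dpi, and 2257, 7304 and 8073 at 21 dpi. At 21 dpi the lowest of these fell below the 7 dpi spots while the other two were above every uninjured spot. Signals of dre-miR-23a were 3866, 3950 and 4068 on the uninjured array, 965, 1811 and 1957 at 7 dpi, and 3333, 5589 and 6003 at 21 dpi. For dre-miR-23b they were 4359, 4641 and 4660 on the uninjured array, 1550, 1607 and 1799 at 7 dpi, and 2338, 5901 and 6399 at 21 dpi. In both zebrafish probes the lowest 21 dpi spot was below all of the uninjured spots.

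The 2 miR-24 probes parted at 21 dpi. The spots of hsa-miR-24 read 936, 2552 and 2676 on the uninjured array, 964, 978 and 1032 at 7 dpi, and 2604, 2611 and 2840 at 21 dpi. One uninjured spot was as dim as the 7 dpi spots. Those of xla-miR-24b read 2064, 2206 and 2368 on the uninjured array, 774, 777 and 784 at 7 dpi, and 399, 432 and 2279 at 21 dpi. At 21 dpi a pair of xla-miR-24b spots lay below every 7 dpi spot, while the remaining spot lay among the uninjured ones. Which of the 2 readings is that of the sample cannot be told from 3 spots.

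The miR-27 family, with 5 lettered forms, showed 2 probes near the empty spots beside 6 brighter ones. Signals of hsa-miR-27b were 482, 663 and 698 on the uninjured array, 171, 190 and 211 at 7 dpi, and 936, 1029 and 1060 at 21 dpi. The dre-miR-27b spots read 1550, 1587 and 1598 on the uninjured array, 584, 589 and 604 at 7 dpi, and 1632, 2041 and 2235 at 21 dpi. In both probes of miR-27b, and in xtr-miR-27c, the 3 arrays did not overlap, with 7 dpi lowest and 21 dpi highest. The xtr-miR-27c signals were 747, 792 and 826 on the uninjured array, 299.8, 306 and 342 at 7 dpi, and 1305, 1341 and 1409 at 21 dpi. For dre-miR-27a they were 1095, 1145 and 1209 on the uninjured array, 388, 392 and 403 at 7 dpi, and 1191, 1808 and 1880 at 21 dpi. The human probe hsa-miR-27a, which ends 1 base earlier, was near the empty spots, at 15.2, 24.5 and 47.1 on the uninjured array, 5.86, 6.38 and 7.40 at 7 dpi, and 44.1, 82.1 and 86.7 at 21 dpi. Its 7 dpi signal is too close to the empty spots for its ratios to be read closely. Signals of dre-miR-27d were 813, 841 and 857 on the uninjured array, 237, 262 and 264 at 7 dpi, and 117, 1053 and 1266 at 21 dpi, the first of these again a single dim spot. For dre-miR-27e they were 393, 402 and 430.1 on the uninjured array, 105, 118 and 146 at 7 dpi, and 428, 678 and 755 at 21 dpi. The dre-miR-27c spots lay between -3.43 and 14.0 in the uninjured heart, between -6.70 and -0.39 at 7 dpi, and between 2.63 and 5.71 at 21 dpi, which is near the level of empty spots.

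**Figure D1:**
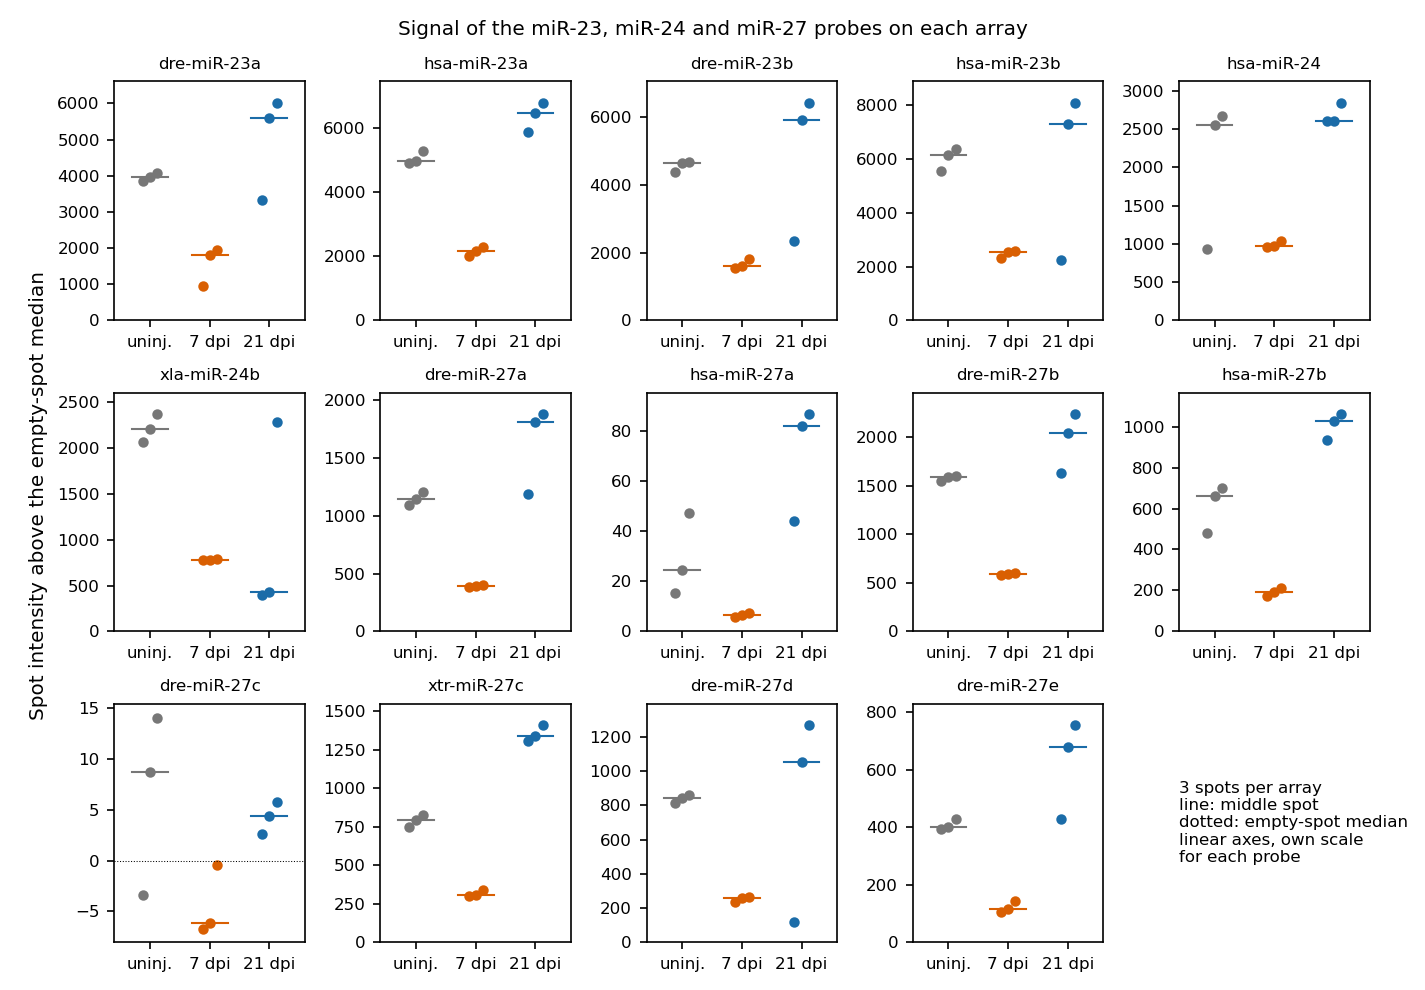
Spot intensity above the empty-spot median (linear vertical axes, a separate scale for each of the 14 probes) on the uninjured, 7 dpi and 21 dpi arrays. Points are the 3 spots of a probe and lines the middle spot. Most probes are lowest at 7 dpi, hsa-miR-23b, dre-miR-23b and dre-miR-27d each have 1 dim spot at 21 dpi, and xla-miR-24b has 2 dim spots and 1 bright spot there.

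The 21 dpi array held the least even spots. Among probes with a signal over 100 above the empty spots, 4 of the 36 family spots at 21 dpi (11.1%) were more than 2-fold from the middle spot of their probe, against 0 of 36 at 7 dpi and 1 of 36 (2.78%) in the uninjured heart. Over all such probes the shares were 4.31% of 441 spots at 21 dpi, 2.45% of 327 at 7 dpi and 1.24% of 402 in the uninjured heart. At 21 dpi the median SD of the 3 log2 spots was 0.37 in the 12 family probes and 0.12 in all 147 probes. At 7 dpi it was 0.09 in both sets, and on the uninjured array 0.06 in the family probes and 0.11 in all. The 4 family spots were those of hsa-miR-23b, dre-miR-23b and dre-miR-27d, all dim, and the bright spot of xla-miR-24b.

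After normalization, no miR-23, miR-24 or miR-27 probe differed by 2-fold between 7 dpi and the uninjured heart. A call needed a log2 difference of 1 or more in size, detection on 1 or both arrays, and no overlap between the 3 spots of one array and those of the other. None of the 14 was called higher, beside 22 of 255 probes tested (8.63%), and none lower, beside 10 of 255 (3.92%). The median difference was 0.00 over the 14 probes and -0.11 over all 255. These counts hold relative to the miRNA signal: 12 family probes were called lower with scaling to the spike-in probes, beside 111 of all 255, and 8 with scaling to 5S rRNA, beside 71. Each ± is the standard error over the spots of both arrays and covers technical spread alone, and an exact 0 means that a probe held the same rank on both arrays.

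All 4 miR-23 probes had small positive differences at 7 dpi after quantile normalization, and all 4 were negative with 5S rRNA or spike-in scaling and with none. In hsa-miR-23a the log2 level was 12.10 at 7 dpi and 11.86 in the uninjured heart, a difference of 0.23 ± 0.06, with spots that did not overlap. The other miR-23 differences lay between 0.05 and 0.15, with overlapping spots. The miR-24 probe hsa-miR-24 stood at 11.11 at 7 dpi and 10.47 in the uninjured heart, a difference of 0.64 ± 0.48. This value rests on the dim uninjured spot: with the median of spots it came to 0.01, and in the authors' processed intensities to 0.19. The second miR-24 probe, xla-miR-24b, stood at 0.07 ± 0.06.

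No miR-27 probe had a positive difference at 7 dpi in the values given here, though some did in other settings. With scaling to the shared miRNA probes 4 were positive. In the authors' values 2 were, as with plain subtraction and a floor of 32. With an offset of 16 and with the median of spots 1 was. In the values given here, 3 of the 8 kept their rank and 5 lay below 0, from -0.24 to -0.32. The level of dre-miR-27a was 9.71 at 7 dpi and 9.98 in the uninjured heart, a difference of -0.27 ± 0.04 without overlap of spots. The values for dre-miR-27d and dre-miR-27e were -0.24 ± 0.05 and -0.32 ± 0.10, also without overlap, as was that of hsa-miR-27a at -0.31 ± 0.15. Those of hsa-miR-27b, dre-miR-27b and xtr-miR-27c were 0.00 ± 0.16, 0.00 ± 0.02 and 0.00 ± 0.06. Over all 3 families, the spots of 6 of the 14 probes did not overlap, against 68.6% of the 255 probes tested.

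At 21 dpi no family probe was called against the uninjured heart after quantile normalization of the spot means. None of the 14 was higher, beside 2 of 230 probes tested (0.87%), and none lower, beside 5 of 230 (2.17%). The median difference was 0.09 over the family probes, -0.06 over all 230 and 0.00 over the 169 probes detected on all 3 arrays. With spike-in scaling 4 family probes were called lower, beside 62 of all 230, and 1 was called lower in 8 other settings, among them the authors' processed intensities, the median of spots, cyclic loess and scaling to shared miRNAs. The spots of 3 of the 14 family probes did not overlap between these arrays, against 54.8% of the 230 probes tested. All 3 had positive differences. With spike-in scaling all 3 were negative, and hsa-miR-23a was also negative with scaling to 5S rRNA or to shared miRNAs. The hsa-miR-27b level was 9.49 at 21 dpi and 8.96 in the uninjured heart, a difference of 0.53 ± 0.16. For hsa-miR-23a the levels were 12.35 at 21 dpi and 11.86 in the uninjured heart, a difference of 0.48 ± 0.07. For xtr-miR-27c they were 9.80 at 21 dpi and 9.42 in the uninjured heart, a difference of 0.37 ± 0.05.

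The remaining differences at 21 dpi had overlapping spots. For the probes detected on both arrays they were 0.36 ± 0.20 for hsa-miR-27a, 0.28 ± 0.48 for hsa-miR-24, 0.21 ± 0.23 for dre-miR-27e, 0.09 ± 0.20 for dre-miR-27a, 0.08 ± 0.13 for dre-miR-27b and 0.00 ± 0.26 for dre-miR-23a. Those below 0 were -0.24 ± 0.46 for dre-miR-23b, -0.44 ± 0.58 for hsa-miR-23b, -0.71 ± 0.90 for dre-miR-27d and -1.59 ± 0.76 for xla-miR-24b. The 3 of these probes with a 21 dpi spot more than 2-fold below the middle one were positive with the median of spots, at 0.02 for dre-miR-23b, 0.40 for hsa-miR-23b and 0.08 for dre-miR-27d. In the authors' processed intensities dre-miR-23b was at 0.36, hsa-miR-23b at 0.31 and dre-miR-27d at -0.0011. The xla-miR-24b difference was -2.41 with the median of spots and -2.73 in the authors' values, both of which follow its pair of dim spots. Over the same arrays hsa-miR-24 was at -0.26 and -0.07.

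**Figure D2:**
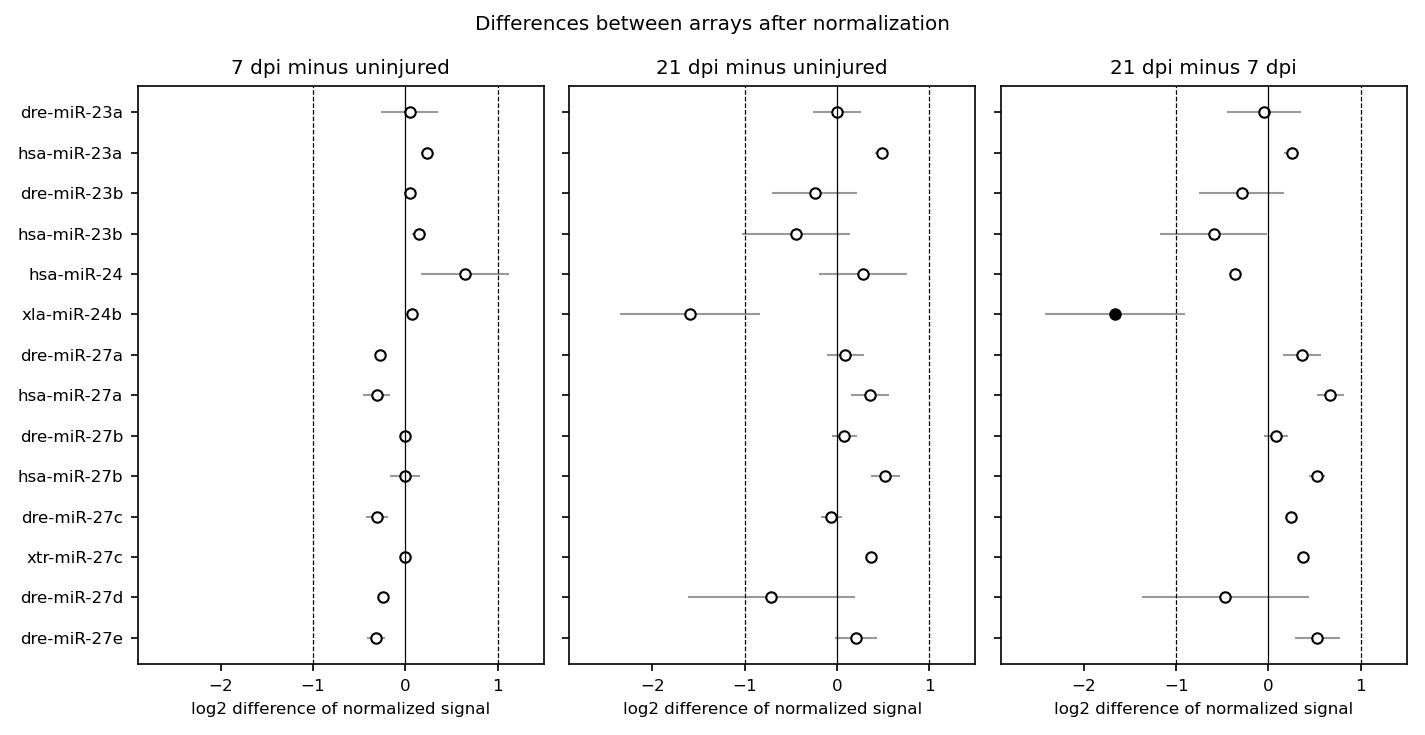
Log2 difference of normalized signal for each probe, at 7 dpi minus uninjured, 21 dpi minus uninjured and 21 dpi minus 7 dpi (horizontal axes, dashed lines at 2-fold). Bars are standard errors from 3 spots per array, open points were not called or not tested and the filled point was called. The filled point is xla-miR-24b at -1.66 between 21 and 7 dpi, and all other points lie within the dashed lines except the same probe at 21 dpi against the uninjured heart.

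**Figure D3:**
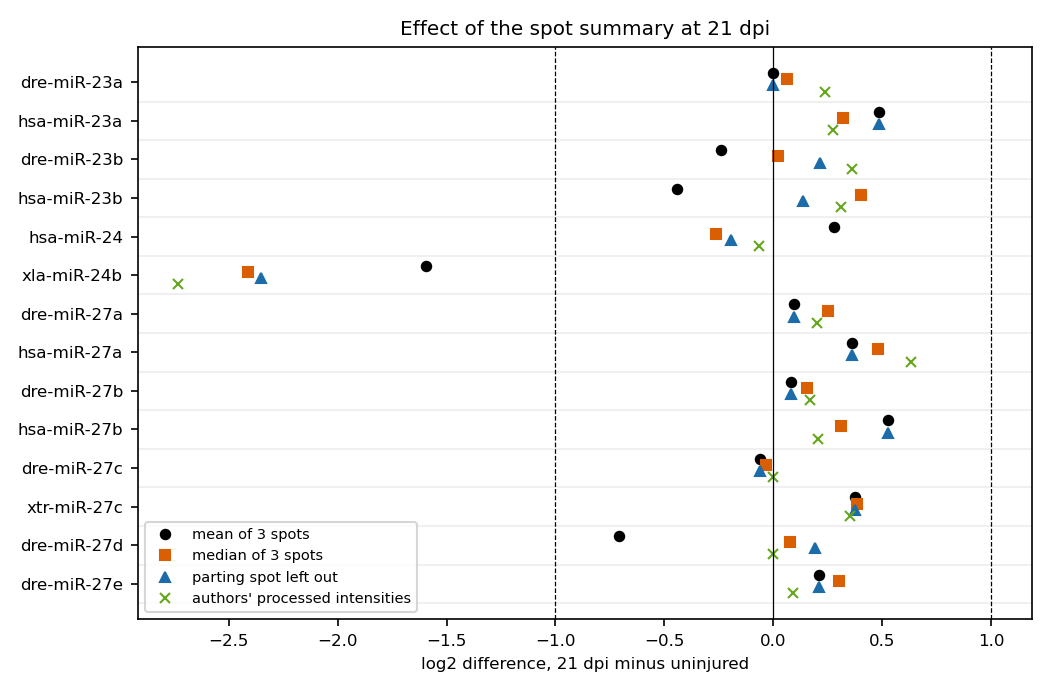
Log2 difference at 21 dpi minus uninjured (horizontal axis, dashed lines at 2-fold) with the mean of 3 spots, the median of 3 spots, a parting spot left out, and the authors' processed intensities. The values of dre-miR-23b, hsa-miR-23b and dre-miR-27d move to near 0 or above when their dim spot no longer counts in a mean, while xla-miR-24b moves further down.

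Between the injured hearts, 1 probe was called lower at 21 dpi than at 7 dpi and none higher. Over all probes tested, 20 of 231 were lower (8.66%) and 9 of 231 higher (3.9%), and 13 of these 231 were family probes. The lower probe was xla-miR-24b, with a log2 level of 9.16 at 21 dpi and 10.82 at 7 dpi and a difference of -1.66 ± 0.76. With no normalization, 5S rRNA scaling or spike-in scaling it was not called. Its brightest 21 dpi spot, at 10.67 after normalization, was only just below the lowest 7 dpi spot at 10.81. In hsa-miR-24 the difference was -0.36 ± 0.05, without overlap. That difference was positive with no normalization (1.39), 5S rRNA scaling (0.55) or spike-in scaling (0.38). The miR-27 probes were mostly above 0, with 6 of 7 positive, beside 117 of all 231. Among them were hsa-miR-27b at 0.53 ± 0.08 and xtr-miR-27c at 0.37 ± 0.06, these without overlap. The value of hsa-miR-27a was 0.67 ± 0.14, also without overlap, but its 7 dpi signal was close to the empty spots. Of the miR-23 probes, hsa-miR-23a stood at 0.25 ± 0.08 without overlap, and the others lay between -0.59 and -0.05 with overlapping spots. All 4 were positive with no normalization, with 5S rRNA or spike-in scaling and in the authors' values. With scaling to the shared miRNA probes all 4 were negative, hsa-miR-23a at -0.24, and with cyclic loess hsa-miR-23a was at -0.11. Over all 3 families, the spots of 6 of the 13 probes did not overlap, against 69.3% of the 231 probes tested. The medians were 0.37 for miR-27, -0.17 for miR-23 and 0.05 for all 231 probes. For the 169 probes detected on all 3 arrays, as these family probes were, the median was 0.20. The sign of the miR-23 median depended on the dim 21 dpi spots of hsa-miR-23b and dre-miR-23b. It was 0.08 both with the median of spots and with a parting spot left out. There miR-27 stood at 0.41 and 0.43, and the 169 probes at 0.16 and 0.24.

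The ratio of signal above the empty spots was also taken before any normalization, from the middle spot of each probe. Scaling a whole array shifts this ratio alike in every probe, so the families can be set beside each other on these arrays whatever the scaling. At 7 dpi over the uninjured heart, the log2 ratios of the 4 miR-23 probes ran from -1.53 to -1.13 with a median of -1.24. The 7 detected miR-27 probes ran from -1.94 to -1.37 with a median of -1.68. Those of the 2 miR-24 probes were -1.38 for hsa-miR-24 and -1.51 for xla-miR-24b. All 13 lay below 0, as did 155 of all 169 probes. Of the 13, hsa-miR-27a, hsa-miR-27b and dre-miR-27e lay below the lower quartile of the 169, which was -1.75.

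At 21 dpi over the uninjured heart the order of the medians was the other way, at 0.66 for miR-27 and 0.36 for miR-23. The miR-23 ratios ran from 0.25 to 0.50, and those of miR-27 from 0.32 to 1.75. These ratios do not use the dim 21 dpi spots of hsa-miR-23b, dre-miR-23b and dre-miR-27d. With spot means and no normalization, the differences ran from -0.23 to 0.33 in miR-23 and from -0.46 to 0.74 in miR-27. The highest miR-27 ratio of middle spots was that of the dim probe hsa-miR-27a, and the others reached 0.76. The miR-24 probes stood at 0.03 for hsa-miR-24 and -2.35 for xla-miR-24b, a value that follows its pair of dim spots and is the lowest of all 169 probes. Between 21 and 7 dpi they stood at 1.42 and -0.85. There the miR-27 median was 2.20 and the miR-23 median 1.61, beside 1.93 for all 169 probes. The ranges of the 2 families overlapped in every comparison. The probe dre-miR-27b stayed among the miR-23 probes throughout, with ratios of -1.43, 0.36 and 1.79. Over the uninjured heart, xtr-miR-27c at 7 dpi (-1.37) and dre-miR-27d at 21 dpi (0.32) also lay within the miR-23 range. The 2 families also differ in brightness. Without hsa-miR-27a the miR-27 medians were -1.61, 0.65 and 2.17 at 7 dpi over uninjured, 21 dpi over uninjured and 21 over 7 dpi. Other probes within 2-fold of the brightness range of those 6 (79 probes) had medians of -1.57, 0.32 and 1.96. Around the miR-23 range (24 other probes) they were -1.55, 0.04 and 1.68. The part of brightness in the difference between the families was not tested.

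**Figure D4:**
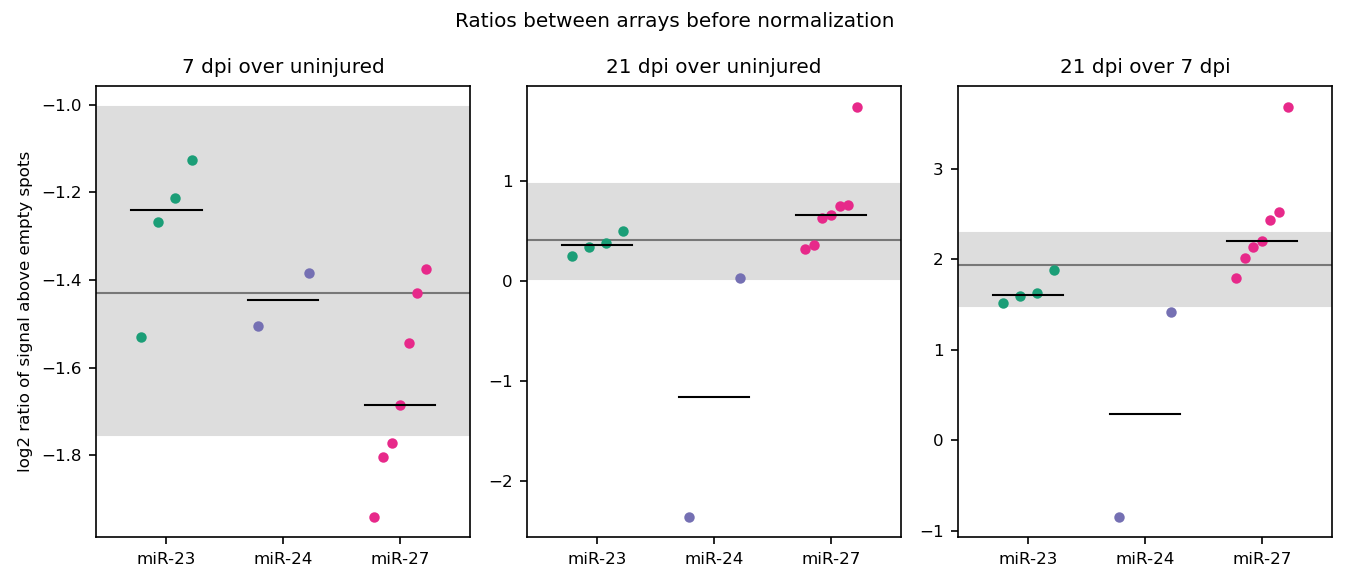
Log2 ratio of signal above the empty spots before normalization for the miR-23, miR-24 and miR-27 probes detected on all arrays (points, with a black line at the median), at 7 dpi over uninjured, 21 dpi over uninjured and 21 over 7 dpi, each on its own vertical axis. Ratios are those of the middle spots. The grey line and band are the median and the interquartile range of all 169 probes. The miR-27 median lies below the miR-23 median at 7 dpi over uninjured and above it in the other panels, and 1 miR-24 probe, xla-miR-24b, lies far below the rest at 21 dpi.

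Under the 11 ways of processing compared, the miR-27 median was below the miR-23 median at 7 dpi against the uninjured heart in 11, by 0.04 to 0.43 on the log2 scale. At 21 dpi against 7 dpi it was above it in 11, by 0.25 to 0.61. At 21 dpi against the uninjured heart it was above it in 10, by 0.03 to 0.50, and below it by 0.09 in the authors' processed intensities. In that comparison the gap was 0.33 with quantile normalization of the spot means. It was 0.11 with the median of spots and 0.03 with a parting spot left out, so its size depended on the dim 21 dpi spots. The 11 settings share the same spots and are not independent. Whole-array scaling shifts every probe alike, so settings differing only in such scaling could change the gap between the medians only through the offset. They are no normalization and scaling to shared miRNAs, 5S rRNA or spike-in probes, so their common sign is not separate evidence. At 7 dpi against the uninjured heart their gaps were -0.04, -0.18, -0.12 and -0.06, in that order. With quantile normalization of the spot means the gap was -0.34.

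The partner strands, cut from the other arm of the same hairpins, were mostly undetected. Of 7 probes, covering miR-23a, miR-23b, miR-24-1, miR-24-2, miR-27a, miR-27b and miR-27c with a star, 1 was detected, and it was detected on all 3 arrays. This was hsa-miR-24-1*, with a middle spot of 26.7 on the uninjured array, then 9.14 at 7 dpi and 58.2 at 21 dpi. Its raw signal had the same order over the arrays as hsa-miR-24. Its normalized differences were -0.28 ± 0.09 at 7 dpi and 0.19 ± 0.13 at 21 dpi, both against the uninjured heart. Signal this close to the empty spots, above all at 7 dpi, keeps these differences from being read closely. The miR-24 strand hsa-miR-24 stood at 0.64 and 0.28 over the same arrays, values that rest on its dim uninjured spot and came to 0.01 and -0.26 with the median of spots.

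The seed of miR-27 overlaps that of miR-128, a miRNA of brain and muscle. Bases 1 to 8 of miR-128 are the same as bases 2 to 9 of miR-27, and after that the sequences part.
hsa-miR-128: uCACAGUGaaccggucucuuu
The hsa-miR-128 spots read 249, 251 and 282 on the uninjured array, 48.2, 64.2 and 74.6 at 7 dpi, and 257, 259.9 and 273 at 21 dpi. Its differences from the uninjured heart were -0.86 ± 0.10 at 7 dpi and -0.34 ± 0.05 at 21 dpi, while the miR-27 probes ranged between -0.32 and 0.00 in the 7 dpi comparison and between -0.71 and 0.53 in the 21 dpi one. The second probe, xtr-miR-128, stood at -1.07 ± 0.06 at 7 dpi and at -0.43 ± 0.06 at 21 dpi. It was called lower at 7 dpi, beside 10 of 255 of all probes (3.92%). Its 7 dpi spots, at 10.05, 13 and 14.2, were close to the empty spots, which keeps that difference from being read closely. No other probe on the array carries the seed of miR-24 or of miR-27, and 1, hsa-miR-130a*, carries that of miR-23.

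Other miRNAs known from vessels were set beside the families, as a list of miR-126, miR-130, miR-143, miR-145, miR-218, miR-221 and miR-222 with their lettered forms. Of its 18 probes, 16 were detected on at least 1 array. None of the 16 was called at 7 or 21 dpi against the uninjured heart. Over all probes, 8.63% were called higher and 3.92% lower at 7 dpi, and 0.87% and 2.17% at 21 dpi. The medians of the list were -0.25 at 7 dpi and -0.11 at 21 dpi, beside -0.11 and -0.06 for all probes. Between 21 and 7 dpi, 1 of 15 was called higher, beside 9 of 231 of all probes (3.9%). The median was 0.35, beside 0.05 for all probes, 0.20 for the 169 detected on all arrays and 0.37 for miR-27. The called probe was hsa-miR-145, a miRNA of smooth muscle, at 1.12 ± 0.11. The other miR-145 probes were not called, dre-miR-145 at 0.86 ± 0.11 and xtr-miR-145 at 0.39 ± 0.50. Heart muscle miRNAs, 10 probes for miR-1, miR-133a, miR-133b, miR-208 and miR-499, had 8 probes detected on all 3 arrays. None of these was called in any comparison, where the shares over all probes ran from 0.87% to 8.66% in each direction. Of the leukocyte miRNAs miR-142, miR-150, miR-155 and miR-223, 3 of 6 probes tested were called higher at 7 dpi than in the uninjured heart, beside 22 of 255 of all probes (8.63%). They were hsa-miR-155 at 1.51, xtr-miR-155 at 1.02 and hsa-miR-223 at 1.48. Not called were xtr-miR-150 at 0.75, hsa-miR-150 at 0.18 and xla-miR-223 at 0.09, and no miR-142 probe was tested there. The normalized medians of this list were 0.89 at 7 dpi and 0.60 at 21 dpi, both against the uninjured heart. Between 21 and 7 dpi the median was -0.27, with 2 of 7 probes positive and none called. The summed signals before normalization, on arrays that differ in brightness, were 281 on the uninjured array, then 447 at 7 dpi and 901 at 21 dpi. Both probes of the liver miRNA miR-122 were detected at 7 dpi alone. Both were called higher at 7 dpi than in the uninjured heart, at 1.64 for hsa-miR-122 and 1.01 for xtr-miR-122, beside 8.63% of all probes. Both were called lower at 21 than at 7 dpi, at -1.75 and -1.10, beside 8.66% of all probes. The other level in each of these differences was undetected. None of the 2 red blood cell probes tested, or of the 3 or 4 epithelial ones, was called in any comparison. Sets this small can hold no call at the shares seen over all probes. The part of these cell types in the family values was not tested. In whole-heart RNA, fewer cells of a type and less of a miRNA per cell cannot be told apart.

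The 5 miRNAs most like a family's brightest probe, by mean normalized level, were found by the root mean square difference of centred log2 levels over the 3 arrays, among 129 other miRNA names detected on all arrays. For hsa-miR-23a they were miR-93a, miR-193b, let-7f, miR-499 and miR-199a-5p, at 0.03 to 0.07, beside a median of 0.29 over the 129. For dre-miR-27b they were miR-107, miR-451, miR-1826, miR-191 and miR-133d, at 0.02 to 0.04, beside a median of 0.23. For hsa-miR-24 they were miR-15c, miR-29d, miR-150, miR-133b and miR-133a, at 0.03 to 0.13, beside a median of 0.38. That match rests on the dim uninjured spot of hsa-miR-24: its 7 dpi difference of 0.64, beside 0.70 for miR-15c and 0.72 for miR-29d, came to 0.01 with the median of spots. The middle spot of hsa-miR-23b, which had a dim 21 dpi spot, was brighter than that of hsa-miR-23a on all 3 arrays. The 0.48 of hsa-miR-23a at 21 dpi came to 0.32 with the median of spots and -0.06 with scaling to shared miRNAs. With 3 arrays, many miRNAs have like patterns, and these names are given as a description.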

How the data were processed

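Each scanner file holds 1 channel (Cy3, per the labels) of 1 sample, so values were treated as 1-colour, although the series text speaks of paired samples. The deposited unit is spot intensity, linear, per the file headers. The authors' processed table holds 1 intensity per probe, also linear, and the scaling behind it is not given here. On log2 scales it correlated with signal above the empty spots at 0.997, 0.997 and 0.996 (uninjured, 7 dpi, 21 dpi; detected probes).

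Normexp with offset 50 (limma 3.58.1, R 4.3.3) was run on the foreground alone, since no background column exists, over 5022 spots. Log2 values were averaged over 3 spots and quantile normalized over 1365 miRNA probes. Whole-array scaling alternatives came before the offset. With 1 sample per group no test could be run, and the number of arrays limits precision. Every family probe is named, with the 5 miRNAs most like the brightest of each family. Members, lists and tests were chosen with earlier results of these data known.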

Additional observations from a re-analysis of the deposited data

How the results depend on the processing

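No paired analysis was possible because each group has 1 sample. The number of family probes called depended on scaling. At 7 dpi against the uninjured heart, 11 were lower with no normalization (beside 96 of all 255 probes), 12 with spike-in scaling (111 of all) and 8 with 5S rRNA scaling (71), and 1 (hsa-miR-24) was higher at a threshold of 1.5-fold (36). At 21 dpi against the uninjured heart, 4 were lower with spike-in scaling (beside 62 of all 230). There, 1 was lower with scaling to shared miRNAs, 5S rRNA scaling, cyclic loess, plain subtraction with a floor of 32, the median of spots, overlap of spots allowed, the authors' processed intensities, and a parting spot left out, which was chosen after seeing the data, beside 6 to 15 of all 230 in these settings. At 21 dpi against 7 dpi, 10 were higher with no normalization (beside 127 of all 231), 4 with 5S rRNA scaling (44), and 1 each with an offset of 16 (21), a threshold of 1.5-fold (29) and spike-in scaling (16). The lower call of xla-miR-24b went to 0 with no normalization, 5S rRNA scaling or spike-in scaling, while its difference stayed negative in all 11 ways of processing, from -2.77 to -0.03. The other alternatives gave the counts reported. Over all probes tested, the alternatives gave 6 to 36 higher (22 as reported) and 4 to 111 lower (10) at 7 dpi, 1 to 18 higher (2) and 1 to 62 lower (5) at 21 dpi, both against uninjured, and 1 to 127 higher (9) and 4 to 31 lower (20) at 21 against 7 dpi. The causes were not tested. Signal close to the empty spots limits hsa-miR-27a, dre-miR-27c, the partner strand hsa-miR-24-1* and, at 7 dpi, xtr-miR-128. The offset compresses their differences.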
